A study of Mus musculus with 24 samples.

Results

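The carboxylesterases of mouse liver are described here across a time course of mice that lack Abcb4. Every named gene whose symbol began with Ces and a digit was taken, whatever its values, which gave 11 of 16504 named genes: Ces1c, Ces1d, Ces1e, Ces1f, Ces1g, Ces2a, Ces2b, Ces2e, Ces3a, Ces3b and Ces4a. Each was represented by 1 feature of the array. The mouse reference annotation holds 20 Ces symbols, so 9 were not analysed here. All members were tested, with no filter on low values.

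Carboxylesterases are serine hydrolases that cut ester, amide and thioester bonds. Most mammalian forms sit in the lumen of the endoplasmic reticulum, held there by a short retention signal at the end of the protein, and hepatocytes are a major source. They activate or clear ester drugs and hydrolyse lipid esters, among them stored triacylglycerol and retinyl esters. In the mouse the genes form tandem arrays of close relatives on chromosome 8.

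The knockouts were male FVB.129P2-Abcb4tm1Bor/J mice. They lack Abcb4, the transporter that moves phosphatidylcholine across the canalicular membrane into bile. The controls were male FVB/NJ mice with both Abcb4 copies intact, and no group received a treatment. The series states 5 mice sacrificed at each of 3, 6, 9 and 20 weeks and 1 dye swap, which makes 6 arrays a week and 24 in all. Each array carried liver RNA of both genotypes in Cy5 and Cy3, with 3 arrays of each dye orientation a week. The array titles give the weeks used here, whereas a description counts them from weaning and the source names read 3 weeks throughout. Nothing links an array to a mouse, and 1 pair a week may share mice, so p-values measure the spread between arrays.

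Values are log ratios of knockout over wild type, on a scale taken as log2, after turning the sign of arrays with wild type RNA in Cy5. The labels do not state which dye is the numerator. Cy5 over Cy3 is likely, because it places Abcb4 lower in the knockout. With the other reading every rise and fall below would be exchanged. The Abcb4 feature averaged -0.87 ± 0.24 (SD, n = 6 arrays) at 3 weeks, -1.57 ± 0.37 at 6, -1.42 ± 0.66 at 9 and -1.34 ± 0.34 at 20 weeks, and it lay below 0 on 24 of 24 arrays. That order follows from the sign chosen and is not a result. Ratios carry no level, so expression of the liver's defining markers could not be checked, and levels of different genes were not compared. Close relatives such as the Ces1 genes can bind each other's features, and values of single members are uncertain to that extent. Among the arrays, 3-week array 6 stood apart in exocrine pancreas markers and 3-week arrays 1 and 2 in Ces3a, Ces3b and Ces4a. Values with and without them are given below.

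The 7 members with a promoter in RefSeq were Ces1c, Ces1e, Ces1g, Ces2a, Ces2e, Ces3b and Ces4a (GRCm38.p6, 250 bases before to 50 after the gene start). A pair from each tandem array is shown because its members behaved differently in the ratios below. Within the Ces1 array these are Ces1c at chr8:93131234-93131533 and Ces1e at chr8:93229570-93229869, both on the minus strand. Within the Ces2 array they are Ces2a at chr8:104733753-104734052 and Ces2e at chr8:104926010-104926309, both on the plus strand. Capitals mark a run of bases that both members of a pair share, the longest for Ces2a and Ces2e and 1 of 2 equally long ones for Ces1c and Ces1e.
Ces1c: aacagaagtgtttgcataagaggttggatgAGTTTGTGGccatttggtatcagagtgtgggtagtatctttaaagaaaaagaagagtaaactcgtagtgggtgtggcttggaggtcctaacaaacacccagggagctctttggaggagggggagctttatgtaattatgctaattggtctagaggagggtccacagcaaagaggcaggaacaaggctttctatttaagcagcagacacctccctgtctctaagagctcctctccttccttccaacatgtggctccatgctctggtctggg
Ces1e: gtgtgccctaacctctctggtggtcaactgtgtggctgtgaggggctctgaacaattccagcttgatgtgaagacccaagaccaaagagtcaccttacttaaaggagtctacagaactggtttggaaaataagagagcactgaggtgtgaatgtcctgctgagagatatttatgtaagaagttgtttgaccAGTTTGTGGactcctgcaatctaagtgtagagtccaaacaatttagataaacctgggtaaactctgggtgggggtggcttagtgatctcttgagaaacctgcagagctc
Ces2a: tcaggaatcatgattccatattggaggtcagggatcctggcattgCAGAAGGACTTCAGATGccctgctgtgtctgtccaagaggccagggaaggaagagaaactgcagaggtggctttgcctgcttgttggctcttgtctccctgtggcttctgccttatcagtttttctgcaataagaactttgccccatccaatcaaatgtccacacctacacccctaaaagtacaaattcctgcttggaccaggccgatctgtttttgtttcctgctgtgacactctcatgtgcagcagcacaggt
Ces2e: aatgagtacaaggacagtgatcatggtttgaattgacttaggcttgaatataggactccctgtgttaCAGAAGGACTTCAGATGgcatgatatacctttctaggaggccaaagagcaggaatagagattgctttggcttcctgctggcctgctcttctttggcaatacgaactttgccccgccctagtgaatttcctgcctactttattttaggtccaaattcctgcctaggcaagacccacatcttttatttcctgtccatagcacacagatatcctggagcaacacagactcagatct
The marked run of Ces1c and Ces1e has 9 bases, and 104 of 32851 mouse promoters hold it on either strand. Ces2a and Ces2e shared 17 bases, and of the 32851 promoters those of Ces2a and Ces2e alone held them. The nuclear receptor motif AGGTCA, searched on both strands, was present in 2 of the 7 Ces promoters, Ces2a and Ces4a, and in 16.3% of all promoters. The letters TATAAA occurred in Ces1g and Ces3b and in 13.6% of all promoters. The CCAAT box was found in Ces1c, Ces1g, Ces2a and Ces3b and in 37.4% of all promoters, and GTTAAT, part of the HNF1 motif, in Ces3b and in 7.1%. None of these 4 motifs contains another. These matches describe the sequence and say nothing of binding.

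The question put to the arrays was how hepatic RNA of the knockout departs from that of its control as the disease develops. Averaged over the 4 weeks, 7 of the 11 carboxylesterases were lower in the knockout, 2 were higher and 2 did not pass, by limma's moderated test with Benjamini-Hochberg adjustment over all 20861 genes and features at a threshold of 0.05. Of all genes and features 19.7% were called lower and 18.7% higher in that comparison. The largest falls were those of Ces1e, with a mean of -1.47, and Ces1f, with -1.18. Ces4a, Ces1d, Ces1c, Ces1g and Ces2a fell by less, from -0.83 to -0.37, and Ces2b and Ces2e rose by 0.17 and 0.27. The median over the members was -0.41, beside -0.003 over everything tested.

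At 3 weeks 2 members were lower, against 3.75% of all genes and features. The count was 6 at 6 weeks, against 10.1% of all, 6 at 9 weeks, against 10.9%, and 7 at 20 weeks, against 5.37%. Members called higher numbered 1, 0, 1 and 2 in the same order of weeks, against 3.64%, 10.8%, 10.4% and 8.09% of all genes and features. At 6 weeks, where limma called 0 members higher, 0 members were higher at an unadjusted p under 0.05 too. The members' median was -0.21, -0.56, -0.44 and -0.58 in order of weeks, while that of all items stayed between -0.003 and -0.001. Ces1c and Ces1d were the 2 members lower at every week. However, each weekly call of Ces1c, and the 9-week call of Ces1d, ended under at least 1 other setting given below.

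**Figure D1:**
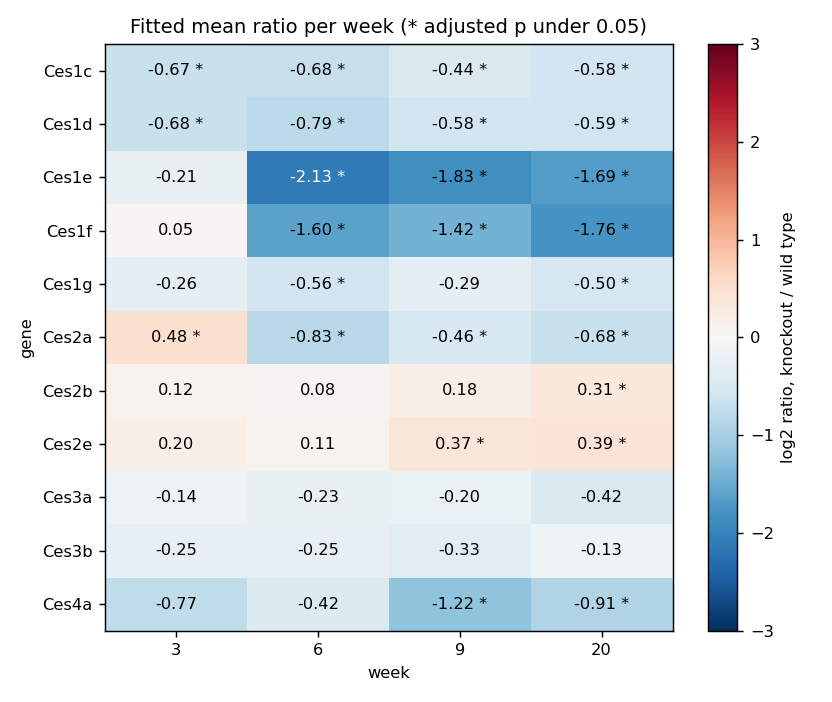
Fitted mean log2 ratio of knockout over wild type for the 11 carboxylesterases (rows) at each week (columns), with an asterisk where the adjusted p was under 0.05. Blue cells are lower in the knockout: Ces1c and Ces1d are blue and marked at all 4 weeks, whereas Ces1e and Ces1f turn from near 0 at 3 weeks to below -1.4 later.

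The heat map of weekly means sets out the members in their order along chromosome 8. Ces1c and Ces1d were called lower from 3 weeks on, Ces1e and Ces1f from 6 weeks on, and Ces4a at 9 and 20 weeks. Ces2a was called higher at 3 weeks and lower afterwards, and Ces3a and Ces3b at no week.

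Ces1e encodes egasyn, which binds beta-glucuronidase and keeps part of it in the endoplasmic reticulum. At 3 weeks its 6 ratios ran from -1.11 through a median of -0.33 to 0.84. Arrays 1, 2 and 6 were low and arrays 4 and 5 high, so the arrays fell on both sides of 0. At 6 weeks the ratios ran from -2.57 through -2.04 to -1.84, and every array lay below the lowest of 3 weeks. At 9 weeks the range was wide, from -3.29 through -1.78 to -0.86, with arrays 1, 4 and 6 low and arrays 2, 3 and 5 closer to 0. At 20 weeks it was -1.97 to -1.05 with a median of -1.80.
Thus Ces1e averaged -0.21 ± 0.78 (SD, n = 6 arrays) at 3 weeks, with a limma adjusted p of 0.79 and a 95% interval from -0.74 to 0.32. It fell at each later week, by -2.13 ± 0.31, -1.83 ± 0.96 and -1.69 ± 0.34, with limma adjusted p of 4.45e-06, 2.04e-05 and 0.000114. Among the 16504 named genes, counted from the lowest, Ces1e ranked 5, 9 and 8 at 6, 9 and 20 weeks.

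Ces1f, a triacylglycerol hydrolase next to Ces1e on the chromosome, followed the same course. Its ratios at 3 weeks ran from -0.27 through 0.00 to 0.47, with 3 arrays on each side of 0. They ran from -2.05 through -1.57 to -1.25 at 6 weeks, from -2.39 through -1.40 to -0.61 at 9 weeks, and from -2.62 through -1.59 to -1.07 at 20 weeks. Every later array lay below the lowest 3-week array. The 9-week arrays 1, 4 and 6 were again the low ones, and at 20 weeks arrays 5 and 6 were lowest.
The means were 0.05 ± 0.28 at 3 weeks (limma adjusted p = 0.951, 95% interval -0.36 to 0.46), -1.60 ± 0.29 at 6, -1.42 ± 0.67 at 9 and -1.76 ± 0.64 at 20 weeks. The limma adjusted p of the later weeks was 6.21e-06, 1.98e-05 and 3.65e-06. From the lowest, Ces1f ranked 15, 28 and 7 of the 16504 named genes.

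Ces2a, a member of the subfamily that in humans prefers esters with a small acyl group, was the member called in both directions. At 3 weeks its ratios ran from -0.50 through 0.56 to 1.24, with 5 of 6 arrays above 0 and array 6 below. At 6 weeks they lay between -0.97 and -0.59 around a median of -0.88. At 9 weeks they ran from -1.05 through -0.52 to 0.37, with array 6 alone above 0. At 20 weeks they ran from -1.46 through -0.66 to -0.05, and all 6 arrays were below 0. The mean was 0.48 ± 0.61 at 3 weeks, then -0.83 ± 0.14, -0.46 ± 0.49 and -0.68 ± 0.47, with limma adjusted p of 0.0331, 0.000183, 0.0199 and 0.002.
Ces2a was also the only member with a dye effect (limma adjusted p = 0.0148). At 3 weeks it averaged 0.003 on the arrays with knockout RNA in Cy5 and 0.96 on those with knockout RNA in Cy3, and at 9 weeks -0.81 and -0.10. The rise at 3 weeks lost its call with any 1 of arrays 1 to 5 left out (adjusted p up to 0.163) and with no dye term (adjusted p = 0.133). It was also lost with the closest pair averaged (0.133), each week fitted on its own (0.115), the replicate block (0.0585) or 3-week arrays 1 and 2 left out (0.409). With only knockout RNA in Cy5 that rise was lost too (limma adjusted p = 0.997). The fall at 9 weeks lost its call without array 2, 3 or 4 (adjusted p up to 0.0824) and with no dye term (0.0769). The same happened with a common spread (0.055), with the closest pair averaged (0.0522) and with only knockout RNA in Cy3 (0.76). With only knockout RNA in Cy3, the fall at 20 weeks also lost its call (-0.45, limma adjusted p = 0.263).

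The knockout effect differed between weeks for 3 of the 11 members, Ces1e (adjusted p = 0.00877), Ces1f (0.00135) and Ces2a (0.0012), by limma's F test, which called 5.08% of all genes and features. The other 8 had adjusted p from 0.174 to 0.998. Against 3 weeks, Ces1e was lower by -1.92 at 6 weeks (95% interval -2.67 to -1.17, limma adjusted p = 0.0078), -1.62 at 9 weeks and -1.47 at 20 weeks. Ces1f was lower by -1.65 at 6 weeks (95% interval -2.23 to -1.07, limma adjusted p = 0.00347), -1.47 at 9 weeks and -1.81 at 20 weeks. For Ces2a the differences from 3 weeks were -1.31 (95% interval -1.72 to -0.91, limma adjusted p = 0.00146), -0.94 and -1.16. All 9 of these differences passed, and no other member passed against 3 weeks, where 1.30% of all items were called for 6 weeks, 3.67% for 9 and 4.57% for 20.
Among 6, 9 and 20 weeks limma called 0 members different, against 0.0767% of all items between 9 and 6 weeks, 1.28% between 20 and 6 weeks and 0.0959% between 20 and 9 weeks. At an unadjusted p under 0.05, Ces2e alone passed, higher at 9 than at 6 weeks by 0.25 and at 20 than at 6 weeks by 0.27. For Ces1e the lowest mean came at 6 weeks and for Ces1f at 20 weeks, but no pair of later weeks passed for either gene. The 95% interval of 20 minus 6 weeks ran from -0.31 to 1.20 for Ces1e.

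**Figure D2:**
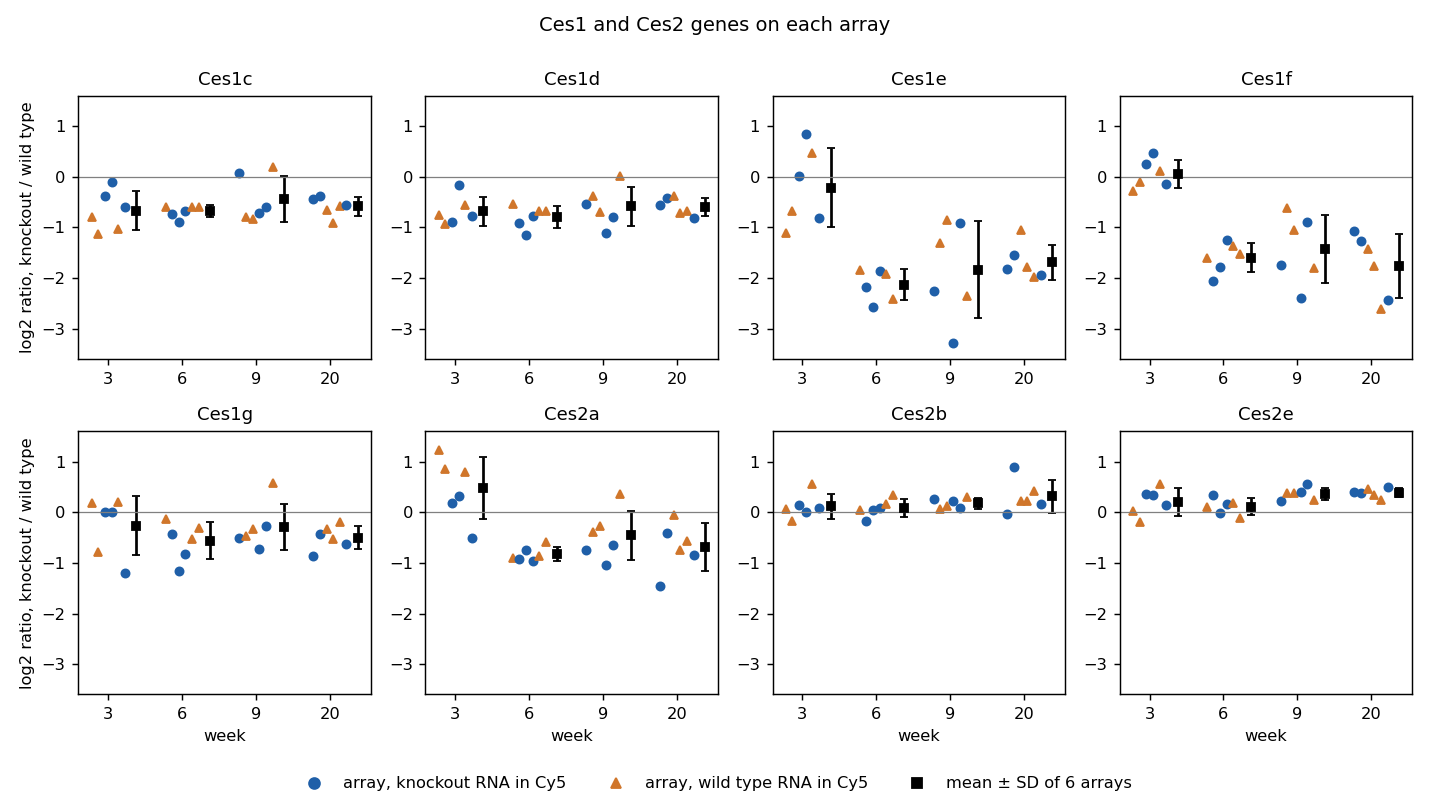
Log2 ratio of knockout over wild type on each array (circles with knockout RNA in Cy5, triangles with wild type RNA in Cy5) and mean ± SD of 6 arrays (squares) by week for the 5 Ces1 and 3 Ces2 genes. Every 6-, 9- and 20-week array of Ces1e and Ces1f lies below 0, Ces1c and Ces1d stay near -0.6 at all weeks, and Ces2b and Ces2e stay within 1 unit of 0.

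Ces1d encodes triacylglycerol hydrolase, which mobilises stored triacylglycerol for the assembly of very low density lipoprotein. Its ratios ran from -0.93 through -0.76 to -0.16 at 3 weeks, from -1.15 through -0.72 to -0.53 at 6, from -1.10 through -0.62 to 0.01 at 9 and from -0.82 through -0.61 to -0.37 at 20 weeks. Only 9-week array 6 was not below 0, so 23 of 24 arrays were low. The means were -0.68 ± 0.29, -0.79 ± 0.22, -0.58 ± 0.38 and -0.59 ± 0.18, with limma adjusted p of 0.000139, 1.35e-05, 0.000283 and 0.000502. The weekly means of Ces1d did not pass limma's F test (adjusted p = 0.743), and 20 minus 3 weeks had a 95% interval from -0.22 to 0.39.

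Ces1c encodes the esterase that mouse liver secretes into plasma. Its ratios ran from -1.12 through -0.70 to -0.10 at 3 weeks, from -0.90 through -0.63 to -0.59 at 6, from -0.84 through -0.65 to 0.20 at 9 and from -0.91 through -0.56 to -0.37 at 20 weeks. At 9 weeks arrays 1 and 6 stood slightly above 0, and the other 22 of the 24 arrays were below it. Means were -0.67 ± 0.39, -0.68 ± 0.12, -0.44 ± 0.46 and -0.58 ± 0.19, with limma adjusted p of 0.000705, 0.000308, 0.01 and 0.00216. The 9-week call ended without array 4 (adjusted p = 0.0552) or array 5 (0.0501), with the closest pair of arrays averaged (0.0649), with the week fitted on its own (0.141) and with the arrays of either dye orientation alone (0.0778 with knockout RNA in Cy5 and 0.103 in Cy3). The 3-week call ended with only knockout RNA in Cy5 (-0.36, limma adjusted p = 0.239). With only knockout RNA in Cy3, the calls at 6 weeks (0.0631) and 20 weeks (0.0722) ended.

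Ces1g, whose loss in mice raises blood lipids, moved less. Its mean was -0.26 ± 0.58 at 3 weeks, -0.56 ± 0.37 at 6, -0.29 ± 0.45 at 9 and -0.50 ± 0.23 at 20 weeks. The calls at 6 weeks (limma adjusted p = 0.00966) and 20 weeks (0.0283) rested on arrays that were all below 0. At 3 weeks arrays 2 and 6 were low, at -0.79 and -1.20, and the others lay between 0.00 and 0.20. At 9 weeks array 6 stood above 0, at 0.57, and the other 5 below; without it the mean was -0.44 and passed (limma adjusted p = 0.0454). The 6-week call ended without array 3 (limma adjusted p = 0.0525) and with only knockout RNA in Cy3 (0.415). The 20-week call ended without array 1, 3, 4 or 6 (adjusted p up to 0.0919) and with the replicate number as a block (0.0553). It also ended with no dye term (0.0521), with the closest pair averaged (0.0655) and with either dye orientation alone (0.0716 with knockout RNA in Cy5 and 0.577 in Cy3).

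Ces2e and Ces2b, both in the tandem array with Ces2a, were higher rather than lower. Ces2e ranged from -0.20 through 0.25 to 0.55 at 3 weeks and from -0.11 to 0.35 at 6 weeks. At 9 weeks its 6 ratios lay between 0.23 and 0.56 and at 20 weeks between 0.24 and 0.49, all above 0. The means of 0.37 ± 0.12 and 0.39 ± 0.09 passed (limma adjusted p = 0.000372 and 0.000479), whereas those of 0.20 ± 0.27 and 0.11 ± 0.16 at 3 and 6 weeks did not (0.0749 and 0.262). Without 3-week array 2 the 3-week value was 0.28 and passed (0.00992). With only knockout RNA in Cy3, the Ces2e calls at 9 weeks (limma adjusted p = 0.108) and 20 weeks (0.23) ended.
Ces2b passed at 20 weeks, at 0.31 ± 0.32 (limma adjusted p = 0.0219), with array 2 high at 0.90 and array 1 at -0.03. That call ended without array 2, at 0.19 (adjusted p = 0.144), and without array 5 (0.0635). It also ended with each week fitted on its own (limma adjusted p = 0.13) and with the closest pair averaged (0.0666). Either dye orientation alone ended it as well (0.124 with knockout RNA in Cy5 and 0.362 in Cy3). Over the mean of weeks, the call of Ces2b ended with only knockout RNA in Cy5 (0.15, limma adjusted p = 0.113). At 3, 6 and 9 weeks Ces2b averaged 0.12, 0.08 and 0.18 and did not pass.

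Ces3a and Ces3b, which lie side by side, were spread widely at 3 weeks. Ces3b was at -3.79, -4.80, -0.87, 2.99, 2.29 and 2.66 on 3-week arrays 1 to 6. Ces3a was at -2.73, -4.60, -0.05, 2.57, 2.45 and 1.50 on the same arrays. Arrays 1 and 2 were low and arrays 4, 5 and 6 high for both genes, with array 3 between. The low arrays both carried knockout RNA in Cy3, as did array 5, which was high. At 6, 9 and 20 weeks the 2 genes stayed between -0.92 and 0.51 on every array.
The 3-week mean was therefore uninformative, at -0.25 ± 3.44 for Ces3b (limma adjusted p = 0.925, 95% interval -1.58 to 1.08) and -0.14 ± 2.95 for Ces3a (0.955, -1.33 to 1.04). Neither passed at any week. These 3-week arrays also set the spread used for both genes at the later weeks: with each week fitted on its own, Ces3b passed at 9 weeks at -0.33 (limma adjusted p = 0.0145), with all 6 arrays below 0. In that fit Ces3a just passed at 6 weeks, at -0.23 (limma adjusted p rounding to 0.05), with 5 of 6 arrays below 0. Leaving out 3-week arrays 1 and 2 together, a choice made after the values were seen, turned the 3-week means to 1.78 for Ces3b and 1.69 for Ces3a, with adjusted p of 0.00417 and 0.000374. The members called higher at 3 weeks were then 3, Ces2e, Ces3a and Ces3b, and Ces2a no longer passed. The direction of Ces3a and Ces3b at 3 weeks thus depends on which arrays are counted.

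Ces4a was below 0 on 24 of 24 arrays, but its size varied. At 3 weeks arrays 1 and 2 were at -1.96 and -2.24 and the other 4 between -0.20 and -0.03. At 9 weeks the ratios ran from -2.46 on array 5 through -1.06 to -0.35 on array 6. At 20 weeks arrays 5 and 6 were at -2.03 and -1.77 and the others between -0.80 and -0.25. Arrays 5 and 6 were the most alike pair of opposite dye orientation at 20 weeks (r = 0.623 over all items after turning). The mean was -0.77 ± 1.03, -0.42 ± 0.16, -1.22 ± 0.76 and -0.91 ± 0.80 in order of weeks, with limma adjusted p of 0.12, 0.339, 0.0033 and 0.0356. The 20-week call ended without array 3 (adjusted p = 0.0532), 5 (0.143) or 6 (0.16) and with the replicate number as a block (0.0536), as well as with the closest pair averaged (-0.72, 0.109) and with each week fitted on its own (0.0727). The latter setting gave a call at 6 weeks (0.0064). Either dye orientation alone ended the 20-week call too (limma adjusted p = 0.161 with knockout RNA in Cy5 and 0.284 in Cy3). With only knockout RNA in Cy3, the 9-week call ended as well (-1.09, limma adjusted p = 0.116). Without 3-week arrays 1 and 2 the 3-week mean was -0.12 (adjusted p = 0.942) and the mean of the 4 weeks -0.67 (adjusted p = 0.000201).

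**Figure D3:**
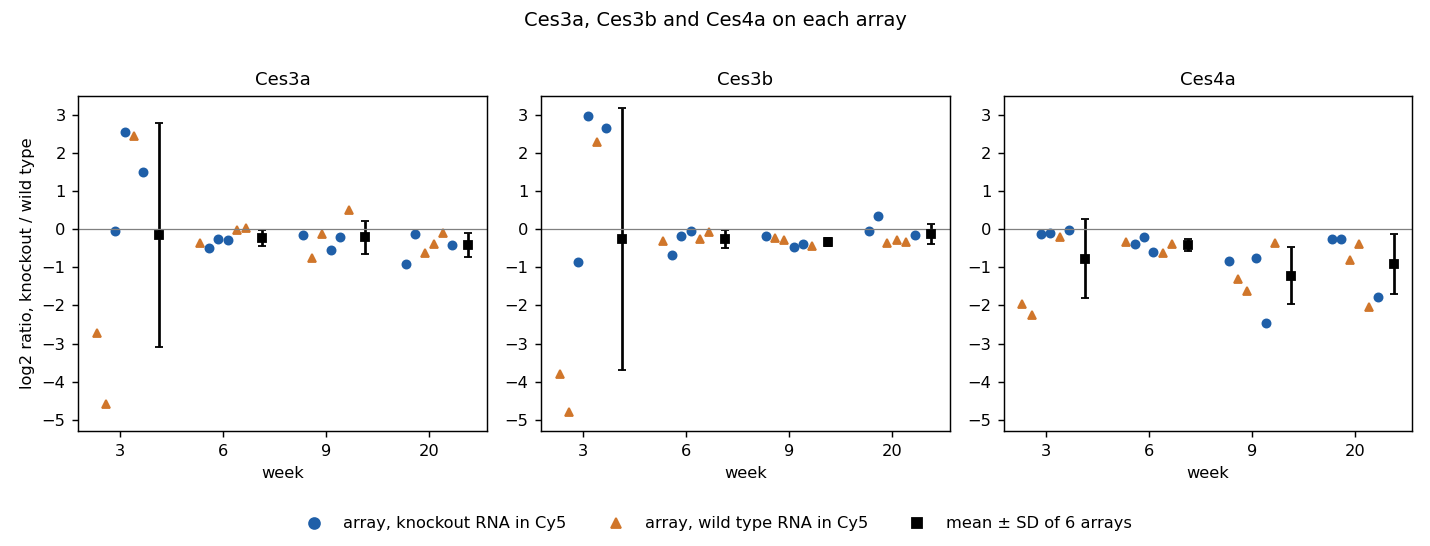
Log2 ratio of knockout over wild type on each array and mean ± SD of 6 arrays by week for Ces3a, Ces3b and Ces4a, with symbols for dye orientation. At 3 weeks Ces3a and Ces3b spread from below -4 to above 2, and 3-week arrays 1 and 2 are the lowest for all 3 genes.

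The plot of Ces3a, Ces3b and Ces4a by array has a wider vertical axis than that of the Ces1 and Ces2 genes. Across the 24 arrays, Ces3a and Ces3b had the highest correlation of any pair of members (Pearson r = 0.95), followed by Ces1e and Ces1f (0.87). Ces2a correlated with Ces1e and Ces1f at 0.63 each, and Ces1c with Ces1d at 0.61. By contrast Ces1e and its other neighbour Ces1d had r = 0.27, and Ces1c with Ces1e or Ces1f had r of -0.09 and -0.10. Ces2a and Ces2e had r = -0.19. These values describe 24 arrays that share weeks, mice and dye effects, and close members may share bound RNA.

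**Figure D4:**
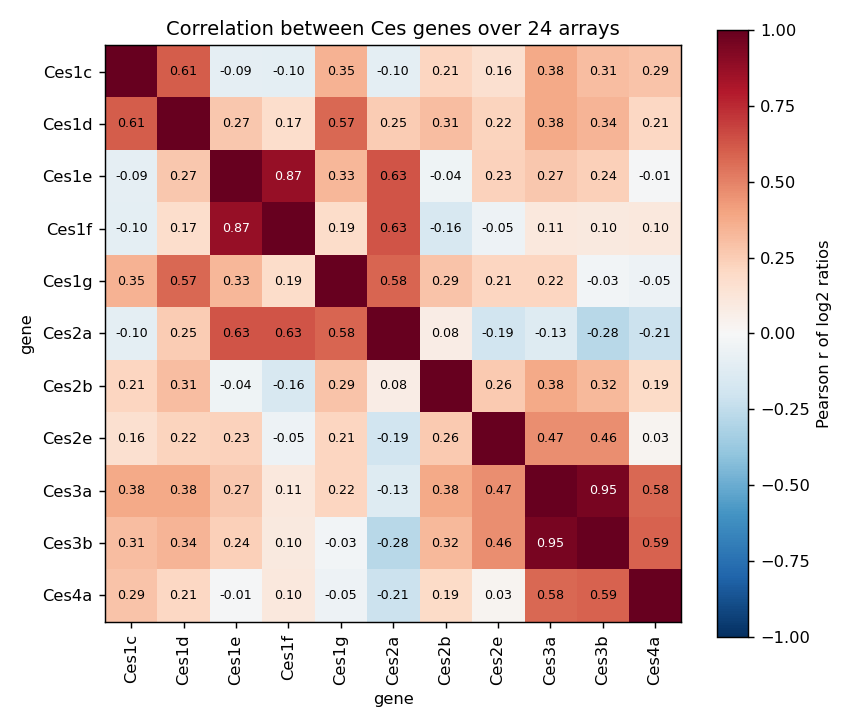
Pearson correlation of log2 ratios between each pair of the 11 carboxylesterases over 24 arrays, on a scale from -1 (blue) to 1 (red). Off the diagonal, the darkest red pairs are Ces3a with Ces3b and Ces1e with Ces1f.

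Outside the family, the named genes most like Ces1e over the 24 arrays were Bdh1 (r = 0.87), Aldh1a1 (0.86), Cyp2c23 (0.82), Inmt (0.80) and Serpina6 (0.78). Bdh1 interconverts ketone bodies, Aldh1a1 oxidises retinal, Inmt methylates indoleamines and Serpina6 is corticosteroid-binding globulin. Those most like Ces1f were Adgrv1 (0.86), Bdh1 (0.83), Cyp2c55 (0.82), Fabp2 (0.79) and Aldh1a1 (0.77). Likeness over arrays did not always mean equal weekly values. Aldh1a1 went from 1.79 at 3 weeks to -0.37 at 6 weeks and 0.10 at 20 weeks. It thus shared the drop of Ces1e after 3 weeks from a higher start. Inmt was near Ces1e at 3 weeks (0.08) and 6 weeks (-2.05), but less so at 9 weeks (-0.71) and 20 weeks (-0.70). Adgrv1 went from -0.13 at 3 weeks to -0.54 at 6 weeks and -0.82 at 9 weeks. For Ces1d the highest were Scyl3 (0.75), Blvra (0.73), Aldh8a1 (0.69), Lactb (0.69) and Phykpl (0.68). Aldh8a1 was at -0.56, -0.63, -0.48 and -0.31 in order of weeks.

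Genes beside the family on the chromosome were counted as well. Of the 20 nearest measured genes flanking the Ces1 and Ces2 to Ces4a blocks, 2 were lower and 4 higher averaged over the 4 weeks, with a median of -0.02, beside 19.7% lower and 18.7% higher among all genes and features. D230025D16Rik (-0.34) and Ogfod1 (-0.08) were lower, and Mmp2 (0.44), Lpcat2 (0.19), Cbfb (0.20) and Fbxl8 (0.25) were higher. Mmp2, a matrix-degrading protease, lies before the Ces1 block with Lpcat2, Capns2 and Slc6a2 between them.

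Other genes that bear on ester hydrolysis were counted from lists by function, each over the mean of the 4 weeks, where 19.7% of all genes and features were lower and 18.7% higher. Most list counts are small, so a share near these values says nothing particular of a list. Of 24 other esterases and lipases, 7 fell and 4 rose, the latter near the share over all, with a median of -0.06. Pon1, the paraoxonase carried on high density lipoprotein, fell (-0.96, below 0 on 24 of 24 arrays), as did the monoglyceride lipase Mgll (-0.65). Lipoprotein lipase, Lpl, rose (0.87), as did the lysosomal thioesterase Ppt1 (0.15).
Of 17 genes of lipid storage and lipoprotein assembly, 1 fell and 4 rose, with a median of 0.02; the share that rose was near that of all genes and features. The lipid droplet proteins Plin3 (0.34), Hilpda (0.16) and Cidec (0.26) were among the risers, and Sar1b, which carries chylomicron cargo from the endoplasmic reticulum, was lower (-0.22).
Of 12 genes of retention and folding in the endoplasmic reticulum, 0 fell and 4 rose, namely Gusb (0.35), Kdelr3 (0.10), Kdelr2 (0.12) and Calr (0.18). Gusb is the beta-glucuronidase that egasyn binds. At 6, 9 and 20 weeks, where Ces1e fell, Gusb rose by 0.42, 0.45 and 0.36 (limma adjusted p = 0.00432, 0.00212 and 0.0193).
Of 15 xenobiotic sensors and hepatocyte transcription factors, 6 fell and 3 rose. Nr1i3, the constitutive androstane receptor, fell at every week, from -0.47 at 9 weeks to -0.66 at 6 weeks. Nr0b2 (-0.59) and the retinoid receptor Rxra (-0.19) fell, and the antioxidant regulator Nfe2l2 rose (1.09). Of 9 genes of retinoid handling, 5 fell and 1 rose, and Ttr (-0.43), Rdh11 (-0.39), Cyp26a1 (-0.32) and Rbp4 (-0.27) were among those that fell.

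Markers of the liver's cell types were counted on the same arrays, beside 19.7% lower and 18.7% higher among all genes and features averaged over weeks. Averaged over weeks, 7 of 12 hepatocyte markers fell and 3 rose (median -0.34), with Tdo2 at -0.80 and Hpx at 1.20. All 11 stellate cell and myofibroblast markers rose (median 0.93, Col3a1 at 1.90), as did 7 of 8 macrophage markers (0.42, Lyz2 at 1.81) and 4 of 7 cholangiocyte markers (0.30, Epcam at 0.83). Of 7 endothelial markers 1 rose (Lyve1 at 0.11) and of 8 lymphocyte markers 1 rose (Cd8a at 0.08), neither above the share over all. Of 5 adipose markers 2 fell and 1 rose (Adipoq at -0.27, Retn at 0.70), counts too small to set against that share. The hepatocyte median was -0.59 at 3 weeks and -0.26 at each later week. Ces1e averaged -0.21 and Ces1f 0.05 at 3 weeks, and both were lower at the later weeks. In bulk RNA, fewer cells of a type and less RNA per cell cannot be told apart, and the part of cell makeup in the falls of Ces genes was not tested.
Exocrine pancreas markers had a median of -4.21 on 3-week array 6 and between -0.26 and 0.07 on the other 23 arrays. Of these 11 markers 2 fell averaged over weeks, near the share over all genes and features, with Amy2a5 at -0.86. On that array Ces2a (-0.50) and Ces1g (-1.20) had their lowest 3-week ratios. Without it the 3-week mean of Ces2a was 0.63 and that of Ces1g -0.11, and the members called at 3 weeks were still 2 lower and 1 higher.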

How the data were processed

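The authors deposited 1 log ratio per feature and array, named log2 here; neither the log base, the numerator, background correction nor normalization is given in the sources used here. Deposited values ran from -8.45 to 7.53, with 0 missing. RNA came from a Qiagen RNeasy extraction and was labelled by a Stratagene FairPlay kit, per the labels, which call the arrays spotted cDNA. No other per-sample columns were present (0).

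Features were named through the platform annotation. A direct join of value and probe numbers gave copies of 48 repeated accessions a mean correlation of 0.007. A grid read column by column from its far corner gave 0.66, chosen after seeing the values, and each gene name rests on this layout. A single gene was named for 18218 of 22575 features. RefSeq tables (GRCm38.p6) gave gene order and promoters.

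Each array was centred on its median, turned to knockout over wild type, and probes of a symbol were averaged. Arrays of opposite dye orientation correlated before turning at median r of -0.29, -0.47, -0.51 and -0.35 in order of weeks. limma 3.58.1 in R 4.3.3 (lmFit, eBayes) fitted 1 mean per week and 1 dye term to 24 arrays. Tests are two-sided, with Benjamini-Hochberg adjustment over 20861 items (16504 named genes, 4357 features without a single gene), and were tested on simulated data. SDs are over 6 arrays. Signal over background was not analysed here, and precision is set by the array number.

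The genes named were Abcb4, all Ces symbols, the 4 genes of each list with the smallest p for the mean of weeks, the 5 genes outside the family most correlated with Ces1d, Ces1e and Ces1f, and flanking genes called. Members and lists were chosen with earlier results of these data known. Alternatives changed the dye term, the fit by week, centring, scaling, averaging of the closest array pair, dye orientation, a replicate block and single arrays.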

Additional observations from a re-analysis of the deposited data

Results flagged for a closer look

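Ces1g on 9-week array 6 stood apart from the other 5 arrays of its week, at 0.57 against -0.73 to -0.28. It was the 1 value found in 48 such tests, of which chance gives about 1 in 20. On the same array Ces1c (0.20), Ces1d (0.01) and Ces2a (0.37) had their highest 9-week ratios, whereas Ces1e (-2.36) and Ces1f (-1.80) were among the low arrays. The knockout effect differed between weeks for Ces1e (adjusted p = 0.00877), Ces1f (adjusted p = 0.00135) and Ces2a (adjusted p = 0.0012) by limma's F test. The weekly means of Ces1e went from -0.21 at 3 weeks to -2.13 at 6 weeks and those of Ces1f from 0.05 to -1.60, each below 0 on 6 of 6 arrays at 6 weeks, and Ces2a went from 0.48, above 0 on 5 of 6 arrays, to -0.83, below 0 on 6 of 6.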

How the results depend on the processing

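With no centring and with quantile normalization, every Ces value and count kept its direction and its side of the threshold. The calls of Ces1e and Ces1f at 6, 9 and 20 weeks and of Ces1d at 3, 6 and 20 weeks held under every alternative run; that of Ces1d at 9 weeks ended with only knockout RNA in Cy3 (-0.35, adjusted p = 0.103). Ces3a and Ces3b at 3 weeks, neither called, changed sign with single 3-week arrays left out (-0.76 to 0.73 and -0.89 to 0.60) and were positive and called (1.69 and 1.78) without arrays 1 and 2 together, which was chosen after seeing the data. No called Ces value changed direction. Leaving out those 2 arrays also gave 3 Ces genes higher at 3 weeks and 5 changing between weeks. The count of Ces genes higher at 3 weeks, 1 in the report, was 0 with no dye term, with each week on its own, with the closest pair averaged, with only knockout RNA in Cy5 and with the replicate block, and 2 with a common spread. At 20 weeks, where 2 were higher, 1 was with each week on its own, with the closest pair averaged and with only knockout RNA in Cy5, and 0 with only knockout RNA in Cy3. With only knockout RNA in Cy5, 1 gene was lower at 3 weeks, 1 was higher over the mean of weeks and 0 changed between weeks. With only knockout RNA in Cy3, 2 were lower and 0 higher at 9 weeks, 3 were lower at 20 weeks and 0 changed between weeks. Over the mean of weeks that setting also ended the calls of Ces1g (-0.22, limma adjusted p = 0.155) and Ces2a (-0.09, 0.435). These 2 settings use 12 of the 24 arrays.

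All items called at 3 weeks (1542) numbered 525 with each week on its own, 2467 with a common spread, 701 with only knockout RNA in Cy5 and 498 in Cy3. At 6 weeks they were 1038 with only knockout RNA in Cy3, at 9 weeks 2286 with each week on its own, 2389 with only knockout RNA in Cy5 and 1615 in Cy3, at 20 weeks 219 and over the mean of weeks 4877 with only knockout RNA in Cy3. With each array left out, Ces genes higher ranged from 0 to 1 at 3 weeks and from 1 to 2 at 20 weeks. Ces genes lower stayed at 2 at 3 weeks. They ranged from 5 to 6 at 6 weeks, from 4 to 7 at 9 weeks and from 5 to 7 at 20 weeks. All items called at 20 weeks ranged from 1821 (without array 2) to 3322. Same-numbered arrays of different weeks correlated from -0.364 to 0.496, 18 of 36 pairs over 0.1. Pairs with different numbers were not compared, so whether the numbers mark anything shared was not tested. The replicate block ended the calls of Ces2a at 3 weeks (limma adjusted p = 0.0585), Ces1g at 20 weeks (0.0553) and Ces4a at 20 weeks (0.0536) and no other Ces call. Each Ces gene has 1 feature, so features could not be compared. The cause of these shifts was not tested. Direction, log base, layout of features and cross-binding among Ces genes limit every value.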

Other observations

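Genes outside the family were picked, after the values were seen, for their likeness to Ces3b. Over 24 arrays, Cyp2j5 (r = 0.91), Nudt7 (0.91), C8a (0.90), Slco1a1 (0.90) and Cyp2f2 (0.89) were the named genes most like it. Cyp2j5 and Cyp2f2 are cytochromes P450, Nudt7 is a peroxisomal coenzyme A hydrolase, C8a a complement component and Slco1a1 an organic anion uptake carrier of hepatocytes. On 3-week arrays 1 and 2, Slco1a1 was at -1.90 and -2.82, and on arrays 4, 5 and 6 at 1.15, 0.93 and 0.94. C8a was at -0.74 and -1.12 on the first pair and at 1.80, 1.56 and 2.20 on the others. All 5 genes were below 0 on arrays 1 and 2 and above 0 on arrays 4, 5 and 6. Ces3b itself varied mostly on these 3-week arrays. Picking genes by likeness to it therefore favours these signs, and they are not a separate result. What these arrays share was not tested.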
